A study of Mus musculus with 2 samples.

Results

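The family of Mir148a, Mir148b and Mir152 consists of 3 microRNA (miRNA) genes of the mouse, found here by their symbols among the 1973 miRNA genes that were counted. It was measured in embryonic hearts of strain B6NCrl at day 15.5 of development. The series holds 1 group with 2 biological replicates. Hearts of 78 embryos were pooled for replicate 1 and hearts of 62 for replicate 2, males and females together, so the spread between them is one between pools. Both pools are of healthy embryos, and the labels name no transgene or treatment. With no second group, the data give the level of each member, the order of the members and the difference between the pools. The libraries held 3439539 counts on miRNA genes in replicate 1 and 5833156 in replicate 2.

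A miRNA is cut from a folded precursor, the hairpin, and guides a silencing complex to mRNAs that pair with its seed, the bases 2 to 8 from its 5′ end. The seed decides most of the target choice, so miRNAs with 1 seed form a family with overlapping targets. This family is best known for acting on the mRNA of Dnmt1, the enzyme that copies DNA methylation after replication, and in liver on mRNAs of cholesterol transport. Mir148b lies inside Copz1 and Mir152 inside Copz2, paralogous genes for the zeta subunit of coatomer, the coat of vesicles that move from the Golgi apparatus to the endoplasmic reticulum.

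The mature sequences of the 3p arms, the strand by which the family is defined, are shown because they carry what the members share and where they part. All are from RefSeq on GRCm38.p6, read 5′ to 3′, and capitals mark the seed.
mmu-miR-148a-3p: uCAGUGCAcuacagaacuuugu
mmu-miR-148b-3p: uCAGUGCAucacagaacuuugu
mmu-miR-152-3p: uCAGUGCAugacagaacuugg

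The 3 seeds were identical, and among the 1738 mature mouse miRNAs of that table these 3 were the only ones with CAGUGCA at bases 2 to 8. Outside the seed the members differed at few positions, counted from 1 at the 5′ end. Between miR-148a-3p and miR-148b-3p there were 2 differences in 22 positions, C9U and U10C. The 3 differences between miR-148a-3p and miR-152-3p in 21 positions were C9U, U10G and U20G, and miR-152-3p ends 1 base earlier. miR-148b-3p and miR-152-3p differed by C10G and U20G. The positions just after the seed therefore tell all 3 apart.

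The whole hairpins are shown because the counts were made over them, with the 3p arm in capitals.
Mir148a: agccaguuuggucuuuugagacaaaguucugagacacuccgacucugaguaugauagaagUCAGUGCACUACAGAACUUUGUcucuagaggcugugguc
Mir148b: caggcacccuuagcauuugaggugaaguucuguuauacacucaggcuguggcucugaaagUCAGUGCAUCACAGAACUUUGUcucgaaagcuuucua
Mir152: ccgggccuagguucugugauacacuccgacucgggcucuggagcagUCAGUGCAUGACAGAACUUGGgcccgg

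The other arm is less conserved within the family. The 5p arms of Mir148a and Mir148b shared the seed AAGUUCU, which no other mature miRNA of the table had, while the 5p arm of Mir152 had AGGUUCU, found in no other. A count stands for a hairpin and does not tell its arms apart. The longest stretch that Mir148a and Mir148b share is 15 bases, and for Mir152 the longest with any other annotated hairpin is 13, so none of the members shares 20 bases with another hairpin. Of the 327 genes with at least 10 counts in both libraries, called detected here, 69 do share such a stretch. Reads that matched several places are in no gene count. How many mismatches the alignment allowed is not given in the sources used here, so whether reads of miR-148a-3p and miR-148b-3p with sequencing errors were lost or exchanged could not be told.

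Mir148a (ENSMUSG00000065505.1) lies on the minus strand of chromosome 6, positions 51269812 to 51269910 of GRCm38, outside any annotated gene on its strand. Mir148b (ENSMUSG00000065560.1) lies on the plus strand of chromosome 15, positions 103285125 to 103285221, in an intron of all 4 Copz1 transcripts that span it and 12.4 kb after the start of that gene. Mir152 (ENSMUSG00000065515.1) lies on the plus strand of chromosome 11, positions 96850393 to 96850465, in an intron of the 3 Copz2 transcripts that span it and 0.523 kb after the start of Copz2. The members are thus single genes on 3 chromosomes, with no annotated exon over any of them on its own strand.

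Mir148a was the leading member of the family in the embryonic heart. Levels are given as CPM, the counts of a gene per 1000000 counts on all miRNA genes, ± gives the SD over both libraries (n = 2), and no length scaling was applied, since the mature forms are of like length (21 or 22 bases for the 3p arms, 22 or 24 for the 5p arms). Mir148a had 3076 counts in replicate 1 and 5045 in replicate 2, so its level was 894 CPM (863 to 926 by the exact binomial 95% interval) and 865 CPM (841 to 889), and its mean was 880 ± 20.8 CPM. Both libraries gave nearly the same level, with intervals that overlap. In bulk tissue, fewer cells of a type and less RNA per cell cannot be told apart.

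Mir152 came next. It had 549 counts in replicate 1 and 917 in replicate 2, or 160 CPM (147 to 174) and 157 CPM (147 to 168), with a mean of 158 ± 1.70 CPM. Mir148b was lowest, with 479 and 748 counts, or 139 CPM (127 to 152) and 128 CPM (119 to 138) in replicates 1 and 2, and a mean of 134 ± 7.80 CPM. By total counts the ranges of the 3 members over both libraries did not overlap. This rests on the scaling for Mir152 and Mir148b. With DESeq2 size factors, Mir152 had 172 and 146 CPM and Mir148b 150 and 119 CPM in replicates 1 and 2, ranges that overlap. Each member was read from the strand of its gene almost alone, with 0 counts on the opposite strand for Mir148a and Mir148b in both libraries and 2 and 1 for Mir152.

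**Figure D1:**
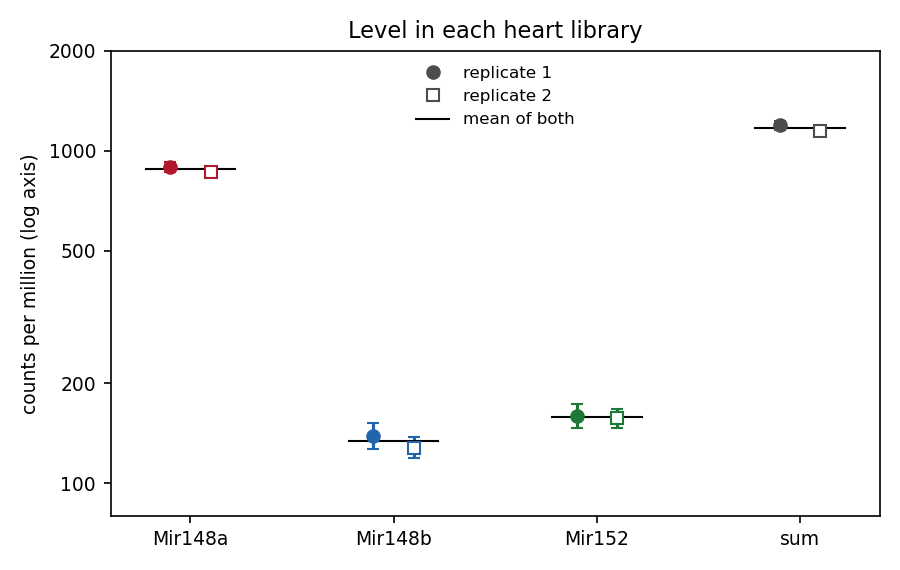
Level of each member and of their sum in CPM (log axis), with 1 point per library, its exact binomial 95% interval and a line at the mean of both. Mir148a, at 894 and 865 CPM, stands far above Mir148b and Mir152, which lie between 128 and 160 CPM.

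The summed level of the members was 1193 CPM in replicate 1, against 1150 CPM in replicate 2, with a mean of 1172 ± 30.3 CPM. That is 0.117% ± 0.00303 of all counts on miRNA genes, which leave out reads that matched several places. A single gene at this level would rank 77 of 1973. The make-up of the family was nearly the same in both pools. Of the family's counts, Mir148a gave 74.95% in replicate 1 (73.6 to 76.3, exact binomial 95% interval), against 75.2% (74.1 to 76.2) in replicate 2. The share of Mir152 was 13.4% (12.3 to 14.5) and 13.7% (12.9 to 14.5), and that of Mir148b 11.7% (10.7 to 12.7) and 11.1% (10.4 to 11.9).

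Ratios within a library do not depend on how libraries are scaled. Mir148a exceeded Mir152 by a ratio of counts of 5.60 in replicate 1 (95% interval 5.11 to 6.15) and 5.50 in replicate 2 (5.13 to 5.91), on the log2 scale 2.47 ± 0.02 (SD, n = 2). Over Mir148b the ratio was 6.42 (5.83 to 7.09) and 6.74 (6.24 to 7.29), or 2.72 ± 0.05 on the log2 scale. These differences were many times the spread between the pools. Mir152 exceeded Mir148b by much less, at ratios of 1.15 (1.01 to 1.30) and 1.23 (1.11 to 1.35), or 0.25 ± 0.07 on the log2 scale. The interval left out a ratio of 1 in both libraries, although in replicate 1 only just. Intervals are binomial within 1 library and so cover counting error only. The reads carry no molecular identifiers in the files, so copies from amplification counted as separate reads and the intervals may be too narrow. Since ligation and amplification can favour some miRNAs, these are ratios of counts and not of molecules.

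**Figure D2:**
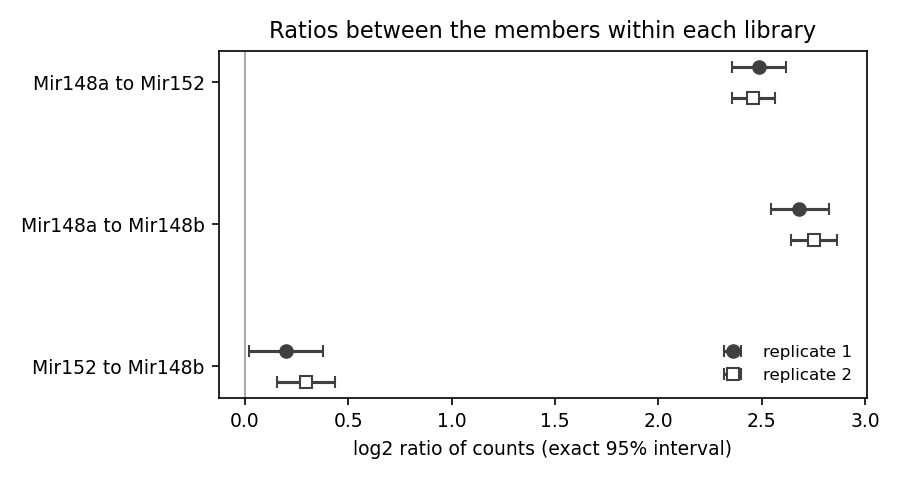
Ratio of counts between each pair of members within each library on the log2 scale, with exact 95% intervals and a line at equal counts. Both ratios of Mir148a lie near 2.5 to 2.8 in both libraries, while Mir152 to Mir148b lies at 0.20 and 0.29.

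Among the 327 detected genes, whose median was 146 CPM, the leading member stood in the upper part of the order and the hosted members near its middle. By mean level Mir148a ranked 83 (80 in replicate 1 and 83 in replicate 2), at 6.01 times that median. Mir152 ranked 157 (146 and 166) at 1.08 times it, and Mir148b ranked 171 (158 and 175) at 0.913 times it. Of the 3 members, Mir152 and Mir148b moved further in rank between the pools than Mir148a did.

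**Figure D3:**
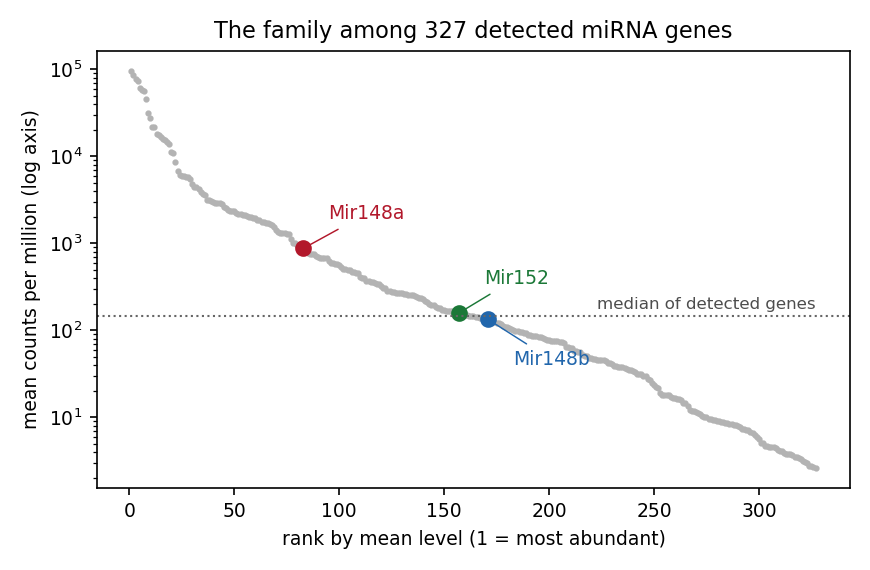
Mean level in CPM (log axis) of the 327 detected miRNA genes by rank, with the members in colour and a dotted line at the median of 146 CPM. Mir148a lies at rank 83, and Mir152 and Mir148b at ranks 157 and 171 lie beside the median.

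Neighbours in the order were mostly not separated from the members by the spread between pools. Just above Mir148a were Mir501 (866 CPM in replicate 1 and 1000 in replicate 2) and Mir301 (1049 and 814), and just below it Mir467d (722 and 981). All 3 had ranges that overlap that of Mir148a, and Mir467d shares a 20-base stretch with another hairpin. Mir337, the next below, had 743 and 820 CPM and did not overlap. Around Mir148b, the neighbours Mir574, Mir485, Mir101a and Mir362 all overlapped it. For Mir152 the overlapping neighbours were Mirlet7a-2, Mir494 and Mir106a, of which Mir106a was far apart between pools, at 62.5 CPM in replicate 1, against 251 CPM in replicate 2. The exception was Mir3071 at 155 and 154 CPM, whose narrow range lay just below that of Mir152.

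The detected genes most like each member were sought by the distance between levels, log2(CPM + 0.5), over the 2 libraries. For Mir148a they were Mir181a-1 (distance 0.16), Mir501 (0.21) and Mir301 (0.25). Mir148b had Mir574 (0.04), Mir101a (0.10) and Mir362 (0.21). For Mir152 the nearest were Mir3071 (0.05), Mir329 (0.10) and Mir340 (0.18). With 2 libraries of 1 tissue this measures a like level and no shared pattern across tissues.

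The libraries were compared gene by gene, replicate 1 against replicate 2, by an exact conditional binomial test after TMM scaling in edgeR, with Benjamini-Hochberg adjustment over 413 genes. This test sets 2 libraries against counting noise and compares no conditions. Of all genes tested, 46.5% were past the threshold of 0.05, 90 (21.8%) higher in replicate 1 and 102 (24.7%) higher in replicate 2. All 3 members were past it too and higher in replicate 1, a share to be read against that background. Genes with few counts are harder to call. Of the 274 genes with at least 100 counts summed, as the members had, 180 (65.7%) were past the threshold, 88 of them higher in replicate 1. The log2 ratio was 0.22 for Mir148a (95% interval 0.16 to 0.29, adjusted p of the exact test 1.3e-10), 0.29 for Mir148b (0.12 to 0.46, 0.0018) and 0.19 for Mir152 (0.04 to 0.35, 0.030). Their median of 0.22 stands beside a median of -0.04 over all genes tested.

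These calls rest on the scaling. By total counts the log2 ratios were 0.048, 0.12 and 0.022 for Mir148a, Mir148b and Mir152, with adjusted p of the exact test of 0.23, 0.26 and 0.86, and none was past the threshold. That scaling moved the median of all genes tested by -0.17 and called 48 genes as higher in replicate 1, with 155 as higher in replicate 2. In size the members' differences were ordinary for these libraries. The absolute log2 ratio of the 327 detected genes had a median of 0.24, and 46.2% of them had a smaller one than Mir148a, 57.2% than Mir148b and 39.4% than Mir152. The SD was 2.37% of the mean for Mir148a, 5.83% for Mir148b and 1.08% for Mir152 by total counts, where the median of detected genes was 13.8%.

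**Figure D4:**
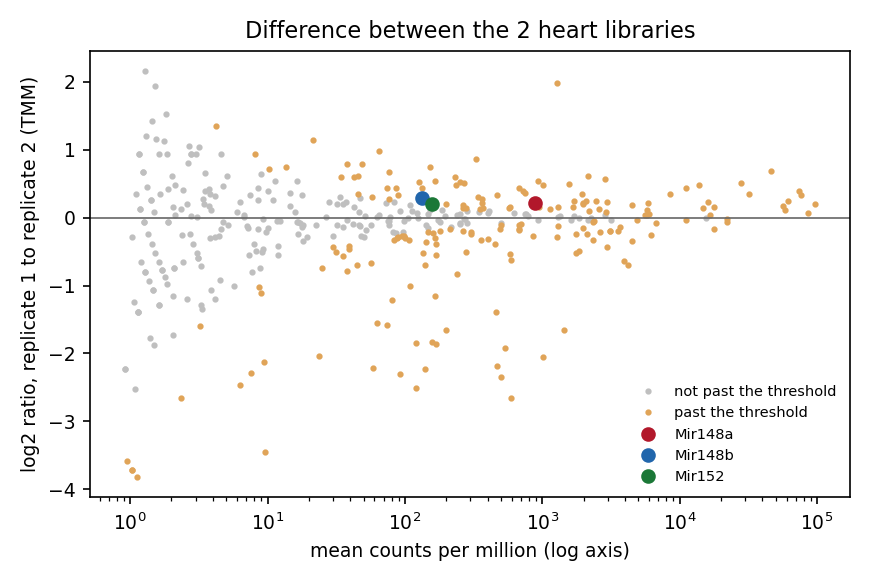
The log2 ratio of replicate 1 to replicate 2 after TMM scaling against the mean level in CPM (log axis), for the 413 miRNA genes tested, coloured by whether the adjusted p is under 0.05. The members sit close together between 0.19 and 0.29, amid many genes of like or larger difference.

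Markers of cell types also differed between the libraries. Genes counted as higher in these lists were past the threshold after TMM scaling. Of all genes tested, 21.8% were so for replicate 1 and 24.7% for replicate 2. For the heart muscle list the sum was 62461 CPM in replicate 1, against 45595 CPM in replicate 2, with 3 of 5 tested genes higher in replicate 1. Of its 7 genes, Mir208a, Mir208b and Mir499 lie in introns of myosin genes, and the lowest of these was Mir499 at 2492 and 1829 CPM. Mir490 had 118 and 126 CPM. Mir1a-1, Mir133a-1 and Mir133a-2, also known as muscle miRNAs, had at most 5 counts in replicate 1 and 7 in replicate 2, and each shares a 20-base stretch with another hairpin. The epithelium list of 7 genes had 1821 and 6297 CPM, with all 7 higher in replicate 2. The erythroid list had 2376 CPM and 986 CPM, with 1 of 2 genes higher in replicate 1. Mir486, an erythroid miRNA outside these sums, went the other way. It had 80.8 CPM in replicate 1, against 110 CPM in replicate 2, and was past the threshold. The mesenchyme list had 5578 CPM and 8924 CPM, with 1 of 5 genes higher in replicate 1 and 2 in replicate 2. Of its 5 genes 3 share a 20-base stretch with another hairpin, so some of their reads may be missing. Mir122, the marker of liver, had 87.2 CPM in replicate 1, against 309 CPM in replicate 2. The neural list had 44.5 CPM against 236 CPM, nearly all from Mir137 (44.2 and 234 CPM), with 4 of its 6 genes at 0 in both. Of these 6 genes 5 share a 20-base stretch with another hairpin, so their reads may be missing and a 0 does not show absence. The leukocyte list had 480 and 702 CPM, the smooth muscle list 83563 and 89291 CPM, and the endothelium list 79217 and 67775 CPM. Of the 3 leukocyte genes 2 were higher in replicate 2. The 2 smooth muscle genes and Mir126a, the marker of endothelium, were higher in replicate 1. In CPM, Mir143 was lower in replicate 1 than in replicate 2 (82454 and 88393), while Mir145a was higher there (1110 and 899). Whether any of this plays a part in the members' differences was not tested.

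Each member lies on the chromosome of a Hox cluster, the genes that set position along the body axis, with its own miRNAs. Mir148a is 960 kb from Mir196b of the Hoxa cluster. Mir148b is 270 kb from Mir615 of the Hoxc cluster, and Mir152 is 533 kb from Mir10a of the Hoxb cluster. After TMM scaling the members and the Hox miRNAs differed in opposite directions between the pools, whereas by total counts the members were not called. Of the 6 Hox miRNAs 5 were tested, and all 5 were past the threshold and higher in replicate 2, as were 24.7% of all genes tested. Their median log2 ratio was -0.82. Mir10a had 2968 CPM in replicate 1, against 5452 CPM in replicate 2. Mir10b, of the Hoxd cluster, had 1340 and 2171 CPM, Mir196b 160 and 318 CPM, and Mir615 44.8 and 117 CPM. Whether the members' difference from the Hox miRNAs is larger than between other sets of genes was not tested.

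**Figure D5:**
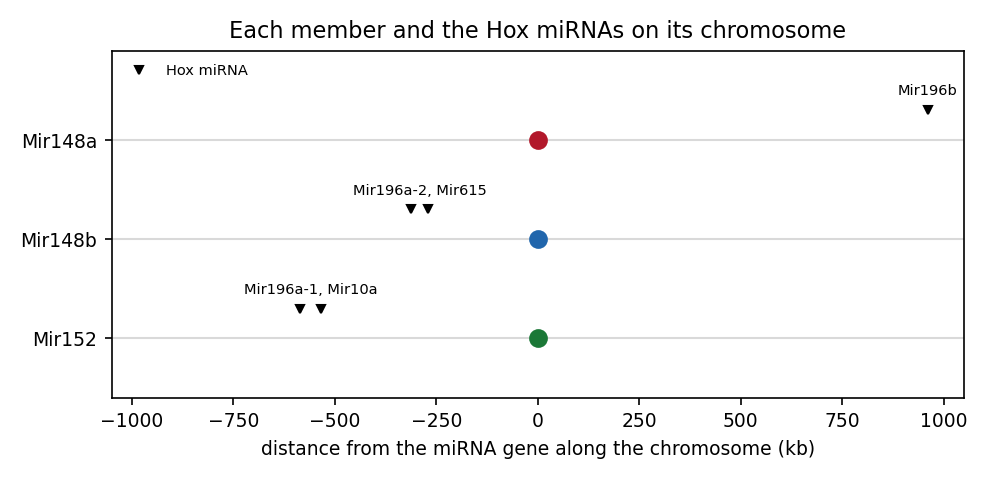
Distance in kb from each member (coloured point at 0) to the miRNAs (triangles) of the Hox cluster on its chromosome, in the direction of the coordinates. The nearest Hox miRNA is 270 kb from Mir148b, 533 kb from Mir152 and 960 kb from Mir148a.

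The Mir130 and Mir301 family has a seed that overlaps this one by all but 1 base at each end of the window. Its mature sequences, from RefSeq on GRCm38.p6 with the seed in capitals, are shown for comparison.
mmu-miR-130a-3p: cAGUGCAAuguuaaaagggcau
mmu-miR-130b-3p: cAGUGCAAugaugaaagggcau
mmu-miR-301a-3p: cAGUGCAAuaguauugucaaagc

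Thus bases 3 to 8 of the Mir148 and Mir152 family, AGUGCA, are bases 2 to 7 of that family, and 7 mature miRNAs of the table carry them there. Beside the 1172 ± 30.3 CPM of the 3 Mir148 and Mir152 genes, the 5 genes of the Mir130 and Mir301 family summed to 21612 ± 114 CPM, of which Mir130a had 17705 ± 154 CPM. The leading member of the smaller family, Mir148a, was at the level of Mir301 (932 ± 166 CPM). Of that family 4 genes were tested, and all 4 were past the threshold and higher in replicate 1, as were 21.8% of all genes tested. Their median log2 ratio was 0.35. By total counts Mir130a and Mir130b had fewer CPM in replicate 1 than in replicate 2 (17597 and 17814 CPM, 2837 and 3028 CPM).

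Other miRNAs have been reported, mostly in human cells, to act on mRNAs of DNA methyltransferases. A list of 9 such genes was set beside the family: the Mir29 genes, Mir101a, Mir101b, Mir143, Mir185 and Mir342. Of the 8 tested, 4 were past the threshold and higher in replicate 1 and 1 was higher in replicate 2, beside 46.5% of all genes called in either direction. The median log2 ratio of the list was 0.07. Mir143, better known from smooth muscle, gave 85423 ± 4199 CPM of their sum of 89729 ± 4652 CPM. After it came Mir342 (2130 ± 432 CPM), Mir101b (1309 ± 11.7 CPM) and Mir185 (402 ± 19.4 CPM). Mir148a, at 880 ± 20.8 CPM, lay between Mir101b and Mir185, while Mir29a, known for its action on Dnmt3a and Dnmt3b, had 253 ± 14.7 CPM. By total counts Mir143 and Mir101b had fewer CPM in replicate 1 than in replicate 2 (82454 and 88393 CPM, 1301 and 1317 CPM). Mir101a, Mir101b, Mir29b-1, Mir29b-2 and Mir29c each share a 20-base stretch with another hairpin, so some of their reads may be missing from the counts.

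Several other miRNA families also sit in introns of paralogous protein genes, as Mir148b and Mir152 do. The list of 15 genes also holds Mir33 in Srebf2 and Mir153 in Ptprn2, each without a listed partner in a paralogous host. Mir26a-2 lies in an exon of some transcripts of Ctdsp2. The 15 listed genes had 5 past the threshold and higher in replicate 1 and 3 higher in replicate 2, a share near the 46.5% called over all genes tested. The median log2 ratio was 0.21. Most abundant were Mir208b in Myh7 (45857 ± 11343 CPM), Mir26b in Ctdsp1 (31857 ± 2617 CPM), Mir208a in Myh6 (5886 ± 121 CPM) and Mir107 in Pank1 (2841 ± 546 CPM). Pairs in paralogous hosts could differ far more than Mir152 and Mir148b did. Mir208b and Mir208a, for example, had 53878 and 5972 CPM in replicate 1, and 37837 and 5801 CPM in replicate 2. Of the 15 genes 9 share a 20-base stretch with another hairpin, among them Mir107.

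A match to the seed in a 3′ untranslated region (UTR) is the simplest sign of a possible target. The motif TGCACTG, which pairs with bases 2 to 8 of all 3 members, was sought on the strand of the mRNA in the longest annotated 3′ UTR of each protein-coding gene (GENCODE M21), and it was present in 2673 of 20848 genes (12.8%). No mRNA was measured, so a match is a feature of the sequence alone. Dnmt1 had 1 match in a 3′ UTR of 312 bases, against 3.14% of 3′ UTRs within 25% of that length. Abca1, which exports cholesterol and is a reported target in liver, had 2 (24.2% of 3′ UTRs of like length hold the motif), as did the integrin gene Itga5 (10.03%) and the homeobox gene Meox2 (11.8%). Dnmt3b had 0 in its 3′ UTR of 1331 bases (12.8%). Itga5 is also a neighbour of Mir148b on chromosome 15, with a gap of 59.1 kb.

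Sites in genes for DNA methylation and cell adhesion are shown because these are processes with which the family is linked. Each is read 5′ to 3′ on the mRNA strand from GENCODE M21 transcripts on GRCm38, and capitals mark the match. The last base, an A opposite the first base of the miRNA, lengthens the match by 1. Of the 2 Itga5 matches, the one without this A is not shown. The 2 Meox2 matches have the A and are not shown either, and the 2 Abca1 matches lack it.
Dnmt1, chr9:20907491-20907518, minus strand: ctctcacccagagccccacgTGCACTGa
Itga5, chr15:103344398-103344425, minus strand: cctgggttctgcccaccagcTGCACTGa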

How the data were processed

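Small RNA was sequenced from total RNA of 2 pools of embryonic mouse heart. The values deposited by the authors are raw counts of reads for each miRNA gene, placed on mm10 with the GENCODE M4 annotation per the text files deposited with them. For the aligner, trimming and counting, tool and settings were not given in the sources used here. Of the 3 columns (either strand, the strand of the gene, the opposite strand, an order read from the values) the second was used. Lines that name no gene stayed out of totals: multiply matching reads were 33.0% of the reads in the file in replicate 1 and 30.1% in replicate 2, unmapped reads 13.1% and 15.1%, and reads on no gene's strand 5.11% and 5.07%.

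IDs were matched without version to GENCODE M21 (1894 of 1973), which gave symbols, positions, hosts and hairpins. CPM used all counts on the strand of genes, so 1 count is 0.291 CPM in replicate 1 and 0.171 CPM in replicate 2. Libraries were scaled by TMM (factors 0.942 and 1.06; edgeR 4.0.16, R 4.3.3). Each gene with at least 10 counts summed had a two-sided exact conditional binomial test with Benjamini-Hochberg adjustment at 0.05. Where a count was 0, 0.5 was added to both for the log2 ratio. Alternatives were DESeq2 1.42.0 size factors, total counts, the either-strand column, all reads as denominator, other count minimums and each library alone. On simulated data (422 genes tested), 52.1% of genes changed by 0.25 on the log2 scale and 87.8% of those changed by 2 were called in the right direction, against 2.2% of unchanged genes. The simulated counts held counting noise alone and no spread between pools. These shares therefore do not tell how often genes are called between real pools. Other steps used Python 3.11.15, pandas 2.3.3 and scipy 1.17.1.

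The members and lists were chosen with earlier results of these data known. Named genes were the members, the 2 detected genes above and below each, the 3 most alike, and up to 4 leading genes per list. Outside that rule, Mir29a, Mir33, Mir130c, Mir153, Mir486 and the genes sharing stretches were named after their values were seen. Mir1a-2, Mir142, Mir486a and Mir9-1 matched no symbol among the counts, and Mir1a-2, Mir142 and Mir9-1 were not analysed here. A gene was counted under the symbol Mir486 but is not in the sums of the erythroid list. Some planned items are not reported here.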

Additional observations from a re-analysis of the deposited data

How the results depend on the processing

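Of 45 alternatives that kept both libraries, 30 left a result the same by the rule for its kind. A log2 ratio between the libraries had to stay on its side of the threshold. Levels, ratios between members and ranks had to stay within 1 SD of their value. The number of genes called had to stay within a set fold of 192, a loose rule that all its alternatives met. Among the log2 ratios recomputed, none turned a direction. The log2 ratio between the libraries was not recomputed for all reads. Per 1000000 of all reads in the file, the levels were 433 for Mir148a, 65.8 for Mir148b, 78.0 for Mir152 and 577 for the family, as this denominator is larger, and Mir152 then had 77.8 in replicate 1, against 78.1 in replicate 2, the reverse of their order in CPM. With counts of either strand, Mir148a had 833 CPM, Mir152 150 CPM and the family 1110 CPM. TMM scaling kept the mean levels but widened their SD over both libraries. It was 95.5 CPM for Mir148a, 19.2 for Mir148b, 15.1 for Mir152 and 130 for the family. The log2 ratios of replicate 1 to replicate 2 lost their calls by total counts (0.048 for Mir148a, 0.12 for Mir148b and 0.022 for Mir152), and that of Mir152 (0.19) did so without a count minimum (adjusted p of the exact binomial test 0.050, where it ranged from 0.0077 to 0.86 over all settings), since more genes enter the adjustment. Genes past the threshold numbered 180 to 203, against 192. Ranks became 90 for Mir148a with either strand, and 73, 131 and 142 for Mir148a, Mir152 and Mir148b among genes sharing no 20-base stretch. With 1 library left out they ran from 80 to 83 for Mir148a and from 158 to 175 for Mir148b, and levels from 865 to 894 CPM, from 128 to 139 CPM and from 157 to 160 CPM for Mir148a, Mir148b and Mir152. Both scaling and depth limit the comparison of the pools. No paired analysis was possible because there is only 1 group.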
